A study of Mus musculus with 8 samples.

Results

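The inflammasome genes examined here are 10 genes chosen by symbol: the inflammatory caspases of a single locus (Casp1, Casp4, Casp12), the sensors Nlrp3, Nlrp10 and Aim2, the adaptor Pycard, the pore protein gene Gsdmd and the cytokines Il1b and Il18. Of these 10 genes, 7 carried a named probe set in the platform annotation, with 10 probe sets in all, out of 17097 genes and 45141 probe sets on the arrays. Gsdmd, Nlrp10 and Aim2 were not named there and were not analysed here. The arrays held RNA of bulge cells, the stem cell compartment of the hair follicle, from the back skin of 15-week-old mice. Of the 8 animals, 4 were labelled G9a cKO, in which the gene of the histone methyltransferase G9a is conditionally deleted, and 4 were labelled G9a WT. All had received the mutagen DMBA and the tumour-promoting phorbol ester TPA in acetone on the shaved back, once a week for 6 weeks, so untreated skin was not part of the comparison. The sources used here do not give the promoter that drives the deletion, the strain, the sex or the way the bulge cells were isolated.

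Inflammasomes are protein platforms on which a sensor, such as the NLRP3 or AIM2 protein, recruits the adaptor ASC, the product of Pycard, which brings in caspase-1. Caspase-1 cuts the precursors of the cytokines IL-1β and IL-18 and opens gasdermin D, whose fragments form pores in the plasma membrane and can kill the cell by pyroptosis. The mouse Casp4 gene encodes caspase-11, which binds bacterial lipopolysaccharide in the cytosol and also cuts gasdermin D. Caspase-12 belongs to the same sequence family and has been linked to stress of the endoplasmic reticulum. Keratinocytes and myeloid cells of the skin can both express parts of this machinery.

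Values are log2 expression after RMA, the authors' background correction, normalization and summary of probes, with an SD over 4 animals. The list of genes was drawn up with the cKO and WT difference in these arrays already known. The differences of the 7 genes are therefore descriptions without a test, and the standard errors quoted are those of a limma fit over all genes or, for second probe sets, over all probe sets. Probe set 1460692_PM_at of Ehmt2, the gene of G9a, read 5.54 to 6.44 in cKO and 8.89 to 9.29 in WT, while its other probe set, 1426888_PM_at, averaged 8.41 in each genotype; the sources used here do not say where the deleted part lies relative to them. Along the first principal component of all genes, which carried 37.3% of the variance, the cKO arrays lay at -12.2 to -5.95, WT replicate 4 at 2.92 and the other WT arrays at 10.6 to 12.7. Results that rest on WT replicate 4 are given with and without it. Keratinocyte genes were bright: the keratin genes Krt14 and Krt5 averaged 12.56 and 12.54 in cKO, against 12.60 and 12.52 in WT. The bulge markers Cd34, Krt15 and Lgr5 averaged 10.45, 12.36 and 11.01 in cKO, against 10.54, 12.26 and 11.04 in WT. Each cKO array was above each WT array for Krt15. They belong to a list of 14 bulge and basal markers in which others differed more. Fst differed by -0.44 and Nfatc1 by -0.35, each with all cKO arrays below all WT arrays. In bulk RNA, fewer cells of a type and less RNA per cell cannot be told apart.

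All 3 caspase genes of the locus read higher in cKO than in WT in every array, on the probe set with the highest mean. Casp1 showed the widest gap of the 7 genes, and Casp4 and Casp12 smaller gaps at dimmer levels. At an adjusted p under 0.05 (limma, Benjamini-Hochberg over all genes), 1.92% of all genes were higher in cKO and 0.836% lower; 3 of the 7 genes, these caspases, were on the higher side and 0 on the lower side. The cKO values lay above the WT values without overlap in 5.15% of all genes, and in 4 of the 7, which were the 3 caspase genes and Il18; they lay below in 3.09% of all genes and in 0 of the 7. These counts restate the contrast that was known when the list was made.

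Casp1, which encodes the caspase that matures IL-1β and IL-18, read 8.71, 8.83, 8.72 and 8.78 in cKO replicates 1 to 4. It read 8.06, 8.18, 7.92 and 8.15 in WT replicates 1 to 4. The lowest cKO array stood 0.54 above the highest WT array, and the range within a genotype was 0.11 in cKO and 0.26 in WT. The means were 8.76 ± 0.05 in cKO and 8.08 ± 0.12 in WT (SD, n = 4), a log2 difference of 0.68 (SE 0.065), which is 1.61-fold higher in cKO. Of all genes, Casp1 stood at percentile 99.5 of signed differences.

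Casp4, the gene of the lipopolysaccharide-binding caspase-11, read 5.56, 5.58, 5.48 and 5.30 in the 4 cKO arrays. The WT arrays read 4.95, 5.21, 5.16 and 4.87. The groups did not overlap, but cKO replicate 4 stood 0.08 above WT replicate 2, less than the range within either genotype (0.29 in cKO, 0.35 in WT). The log2 difference was 0.43 (SE 0.09), or 1.35-fold, at a mean near percentile 40.6 of all probe sets. Ranked among genes, Casp4 was in the dimmest 40%.

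Casp12, the caspase linked to endoplasmic reticulum stress, had a pair of probe sets that disagreed. Probe set 1418981_PM_at read 4.53, 4.44, 4.51 and 4.39 in cKO and 4.21, 4.34, 4.23 and 4.13 in WT, a log2 difference of 0.24 (SE 0.052), or 1.18-fold, with a gap of 0.05 between the groups. Probe set 1449297_PM_at read 3.81, 3.66, 3.71 and 3.61 in cKO and 3.64, 3.77, 3.73 and 3.67 in WT, a difference of 0.00097 with overlapping groups. Both lay low on the scale, at percentiles 21.5 and 4.89 of probe set means, where RMA compresses differences and much of the signal is background. The mean of both probe sets gave a difference of 0.12.

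**Figure D1:**
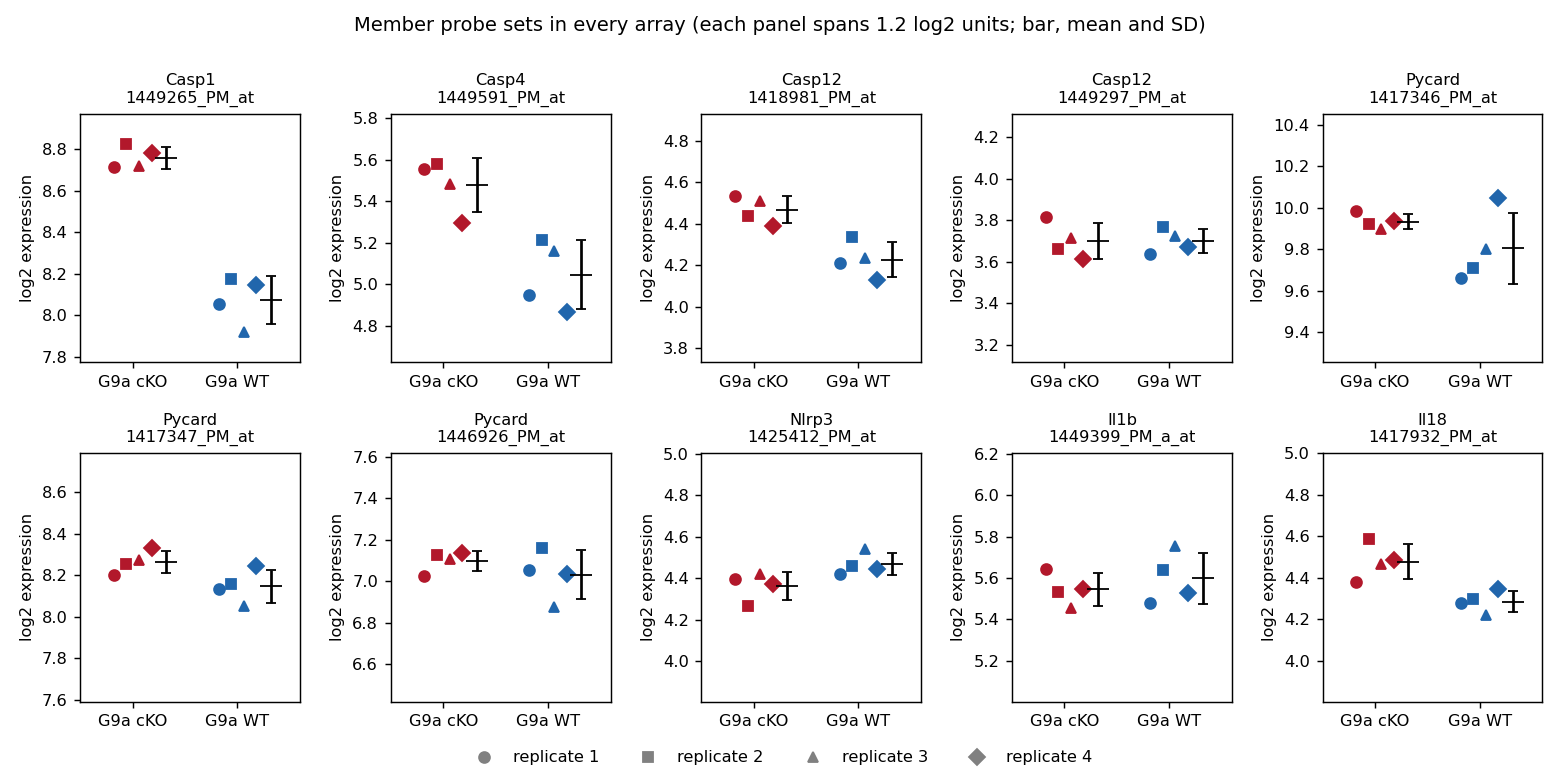
Each panel shows log2 expression (y axis) of a probe set in the 4 G9a cKO arrays (red, left) and the 4 G9a WT arrays (blue, right), with marker shapes for the replicate number and a black bar for the mean and SD; every panel spans the same 1.2 log2 units, with a different start. Casp1 has the widest gap between the genotypes, at 0.54, and the second Casp12 probe set, the Pycard probe sets, Nlrp3 and Il1b overlap.

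The 3 caspase genes lie next to each other on the same strand of chromosome 9, so their upstream sequences are shown to allow a comparison of what stands before each start. Each line gives the 250 bases before the annotated start, 5′ to 3′, on the plus strand of GRCm38.p6 from RefSeq; for Casp4 the first of the 2 annotated starts was taken. Capitals mark matches to the NF-κB consensus or to the interferon-activated GAS core TTCNNNGAA, searched on both strands.
Casp1 chr9:5298267-5298516: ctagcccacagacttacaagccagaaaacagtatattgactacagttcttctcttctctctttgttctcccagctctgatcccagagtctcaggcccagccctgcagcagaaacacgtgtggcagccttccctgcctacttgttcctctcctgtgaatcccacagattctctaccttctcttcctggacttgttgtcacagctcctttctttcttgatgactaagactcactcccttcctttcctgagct
Casp4 chr9:5308599-5308848: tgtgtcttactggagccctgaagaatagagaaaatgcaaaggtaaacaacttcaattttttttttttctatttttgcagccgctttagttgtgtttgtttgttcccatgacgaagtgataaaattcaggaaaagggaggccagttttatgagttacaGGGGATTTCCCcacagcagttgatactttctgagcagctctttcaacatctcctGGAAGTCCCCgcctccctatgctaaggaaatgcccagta
Casp12 chr9:5345226-5345475: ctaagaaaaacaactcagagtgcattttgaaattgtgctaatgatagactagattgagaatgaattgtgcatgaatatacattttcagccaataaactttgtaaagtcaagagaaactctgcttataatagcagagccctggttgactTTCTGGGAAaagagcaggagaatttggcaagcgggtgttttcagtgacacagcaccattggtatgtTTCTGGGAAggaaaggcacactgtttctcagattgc
Counted back from the start, the Casp4 window held NF-κB consensus matches at -93 to -84 and -92 to -83, which overlap, and at -39 to -30. The Casp12 window held GAS core matches at -102 to -94 and at -36 to -28. The Casp1 window had 0 matches to these patterns, to the AP-1 site TGANTCA or to the ISRE core (GAAA, any 2 bases and GAAA), so no pattern of the 4 was shared by the 3 windows. Among 32851 promoter windows of this length, 7.25% held an NF-κB consensus match, 7.02% a GAS core, 6.75% an AP-1 site and 2.98% an ISRE core. A match here describes letters and not a used site.

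Promoter windows were listed for 8 of the 10 genes, 10 windows in all. Of the other windows, that of the first annotated Nlrp3 start had an NF-κB consensus match, and those of Pycard, Aim2, Il1b and Il18 had a match to none of the 4 patterns. The windows of these 8 genes contained 1 to 4 CpG dinucleotides, against a median of 6 over all windows. Windows with at most 4 made up 44.4% of all, so a low CpG count was common among promoters in general.

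The genes flanking the caspase locus were examined because they were not used to choose the list. Of 17 protein-coding neighbours, 7 before Casp1 and 10 after Casp12, all 17 were measured, and 0 passed an adjusted p of 0.05 in limma, with 2 below an unadjusted p of 0.05. Of all genes, 13.7% had an unadjusted p under 0.05, the share against which this and the later unadjusted counts are to be read. Pdgfd, a growth factor gene next to Casp12, read 3.63 ± 0.05 in cKO and 3.77 ± 0.06 in WT, a log2 difference of -0.14 (limma adjusted p = 0.0986), near the bottom of the scale; it fell past the threshold without WT replicate 4, in 1 of 8 fits without an array. Cwf19l2, the other gene below an unadjusted p of 0.05 and named after its values were seen, had a difference of 0.15 (limma adjusted p = 0.287). Gria4, a glutamate receptor gene on the Casp1 side, differed by -0.06 (limma adjusted p = 0.724), Msantd4 by 0.13 (limma adjusted p = 0.636) and Ddi1 by -0.03 (limma adjusted p = 0.808). Many of these neighbours were dim, among them the matrix metalloproteinase genes Mmp13, Mmp12, Mmp1b and Mmp1a. On the Casp12 side, all but Dync2h1 and Dcun1d5 lay at percentiles 1.69 to 20.6 of gene means. On the Casp1 side, Gucy1a2 lay at percentile 1.84 and Gria4 at 35.5, and the others were brighter. For the dim neighbours, a small difference is limited by signal over background.

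**Figure D2:**
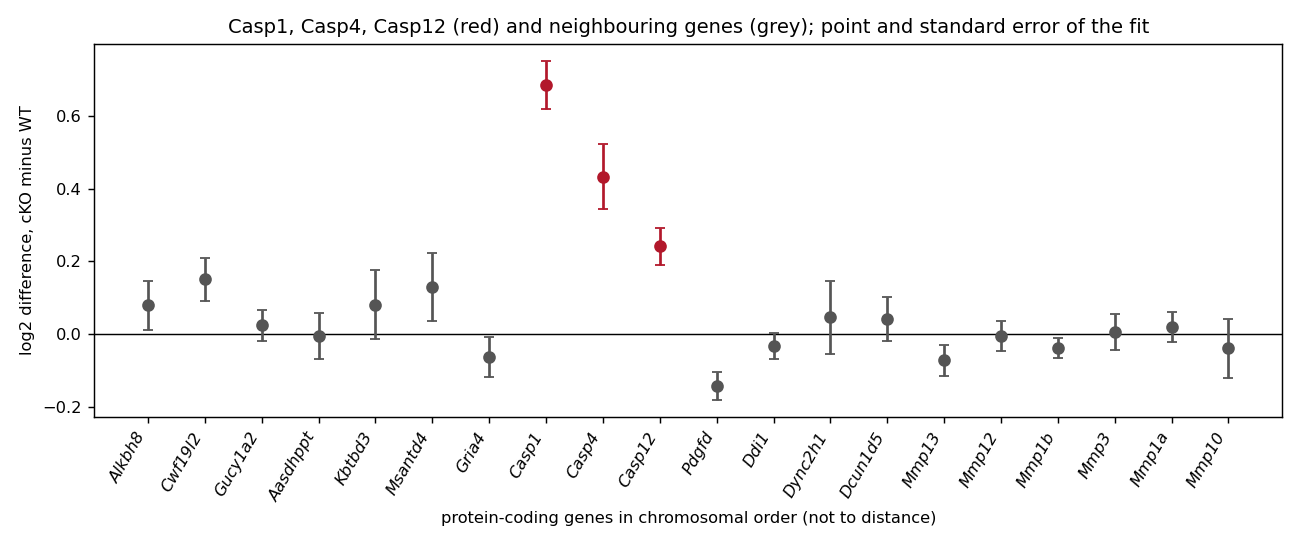
Log2 difference, cKO minus WT (y axis), of Casp1, Casp4 and Casp12 (red) and 17 protein-coding neighbours (grey), in chromosomal order without distances on the x axis; points are limma estimates and bars their standard errors. The 3 caspase genes, each on its probe set with the highest mean, stand at 0.24 to 0.68, and the neighbours between -0.14 and 0.15. The second Casp12 probe set, which is not drawn, differs by 0.00097.

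Pycard, the gene of the adaptor ASC, read high on the scale, at percentile 94.3 of probe set means. Probe set 1417346_PM_at read 9.98, 9.92, 9.90 and 9.93 in cKO and 9.66, 9.71, 9.80 and 10.05 in WT. The cKO arrays agreed within 0.09 while WT replicate 4 stood above all of them and the other WT arrays below all of them. The log2 difference was 0.13 (SE 0.076), and without WT replicate 4 it was 0.21, with the groups apart. Probe set 1417347_PM_at read 8.20 to 8.33 in cKO and 8.05 to 8.24 in WT, where WT replicate 4 was the highest WT array and stood above cKO replicate 1 alone of the cKO arrays, with a difference of 0.12 that became 0.15 without WT replicate 4. The third probe set, 1446926_PM_at, differed by 0.07 and overlapped with or without that array.

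The sensor gene Nlrp3, whose protein responds to potassium efflux and membrane damage, was near background. It read 4.39, 4.27, 4.42 and 4.37 in cKO and 4.42, 4.46, 4.54 and 4.45 in WT. The log2 difference was -0.10 (SE 0.046), and cKO replicate 3 stood level with WT replicate 1, so the groups overlapped.

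Of the cytokine genes, Il18 separated the genotypes and Il1b did not. Il1b, which encodes the IL-1β precursor, read 5.64, 5.53, 5.45 and 5.55 in cKO and 5.48, 5.64, 5.75 and 5.53 in WT, a log2 difference of -0.05 (SE 0.07), smaller than the range within either genotype. Il18, which encodes the IL-18 precursor, read 4.38, 4.59, 4.47 and 4.48 in cKO and 4.28, 4.30, 4.22 and 4.35 in WT. Each cKO array was above each WT array, by as little as 0.03, and the difference was 0.19 (SE 0.049), or 1.14-fold, at percentile 22.4 of probe set means.

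Leaving out each array in turn kept the sign of all 7 differences. Casp1 ran from 0.63 to 0.72, Casp4 from 0.37 to 0.49 and Casp12 from 0.21 to 0.28. The count of 3 genes at the threshold depended on the arrays used: Casp4 was past it in 3 of these 8 fits, those without cKO replicate 4, WT replicate 2 or WT replicate 4, and Casp12 in 2, those without cKO replicate 4 or WT replicate 2. Casp1 was past it in all 8. Pycard was past it in 1, that without WT replicate 4, and Il18 in 1, that without cKO replicate 1. As the list was made with this contrast known, these counts are descriptions and not tests.

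Receptors and ligands of the IL-1 family lay mostly below 0 by small amounts, and 1 of 17 measured fell, against 0 that rose. This was Il18r1, which encodes the chain of the IL-18 receptor that binds the cytokine. Il18r1 read 5.22, 5.27, 5.38 and 5.44 in cKO and 6.17, 5.97, 5.94 and 5.65 in WT. Each cKO array was below each WT array, with WT replicate 4 nearest. The means were 5.33 ± 0.10 in cKO and 5.93 ± 0.21 in WT (SD, n = 4), a log2 difference of -0.60 (SE 0.10, limma adjusted p = 0.00964), which is 1.52-fold lower. It passed in 8 of 8 fits without an array, with a highest limma adjusted p of 0.0394. Of the 17 genes, 14 lay below 0, with a median of -0.04. Over all genes, 8299 of 17097 lay below 0, the median was 0.0027, and 0.836% were called lower and 1.92% higher. Of the 17, 13 were among the dimmest 40% of genes, Il18r1 included, where the sign of a small difference says little. Il18rap, the partner chain of that receptor and named after its values were seen, averaged 4.53 ± 0.07 in cKO and 4.37 ± 0.07 in WT and did not pass (limma adjusted p = 0.143).

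Other inflammasome components gave 0 calls. Of all genes, 1.92% were called higher and 0.836% lower, so lists this short would hold few calls in any case. Of 17 further sensors and adaptors, 12 were among the dimmest 40% of genes. In limma, 0 of the 17 passed and 2 had an unadjusted p under 0.05. The lowest p was that of Nlrc5, a regulator of MHC class I genes, at 9.13 ± 0.12 in cKO, against 8.91 ± 0.11 in WT (limma adjusted p = 0.2097). Of 16 licensing factors and regulators, 0 passed and 2 had an unadjusted p under 0.05. Ripk3, a kinase of necroptosis, was first among them, at 7.06 ± 0.10 in cKO, against 7.24 ± 0.09 in WT (limma adjusted p = 0.246). Of 6 genes of other gasdermins and membrane rupture and 6 other caspases, 0 passed and 0 had an unadjusted p under 0.05. Among the dimmest 40% were 5 of the 16 regulators, 4 of the 6 gasdermin and rupture genes and 0 of the 6 other caspases. For dim genes, the lack of a call is limited by signal over background. The skin gasdermin gene Gsdma differed by -0.13 (limma adjusted p = 0.374) and Casp2 by 0.15 (limma adjusted p = 0.4798). Casp14, the caspase of cornification, differed by 0.24 (limma adjusted p = 0.611), and of the 8 fits without an array it passed in that without WT replicate 4.

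Signalling upstream of these genes gave few calls. Of 34 genes of IL-1 receptor and Toll-like receptor signalling, 0 passed in limma and 5 had an unadjusted p under 0.05, close to the share of all genes. Tlr4, the surface receptor for lipopolysaccharide, had the lowest p, at 5.20 ± 0.11 in cKO, against 4.98 ± 0.08 in WT (limma adjusted p = 0.13998). Tlr4 passed without cKO replicate 1, and Nfkbiz, a cofactor of NF-κB, without WT replicate 4. Of 29 interferon response genes, 2 rose and 0 fell, with a median of 0.05. At an unadjusted p under 0.05 in limma, 8 of the 29 were higher and 2 lower. That is a larger share than the 13.7% of all genes, and its cause was not tested. Casp1, Casp4 and Gsdmd are themselves known to be induced by interferons in mouse cells. Whether interferon has a part in the caspase differences was not tested. Ifit1, an inhibitor of viral translation, read 6.40, 6.46, 6.61 and 6.47 in cKO and 6.03, 6.15, 5.83 and 5.88 in WT, which is 1.43-fold higher (limma adjusted p = 0.00711). Herc6, the ligase that attaches ISG15 in the mouse, read 6.19, 6.32, 6.35 and 6.32 in cKO and 5.88, 6.12, 5.76 and 5.89 in WT, which is 1.30-fold higher (limma adjusted p = 0.0299). Ifit1 passed in 8 of 8 fits without an array and Herc6 in 3. The number of interferon response genes that rose was 1 in the 5 fits without cKO replicate 2, 3 or 4 or WT replicate 1 or 3, and 4 without WT replicate 2. Without WT replicate 4, 2 rose and 1 fell, the transcription factor gene Irf1. Over all 8 lists of pathway genes, 2 of 141 measured genes rose and 1 fell, and without WT replicate 4 the number that fell was 21, of which 18 were immediate early genes.

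**Figure D3:**
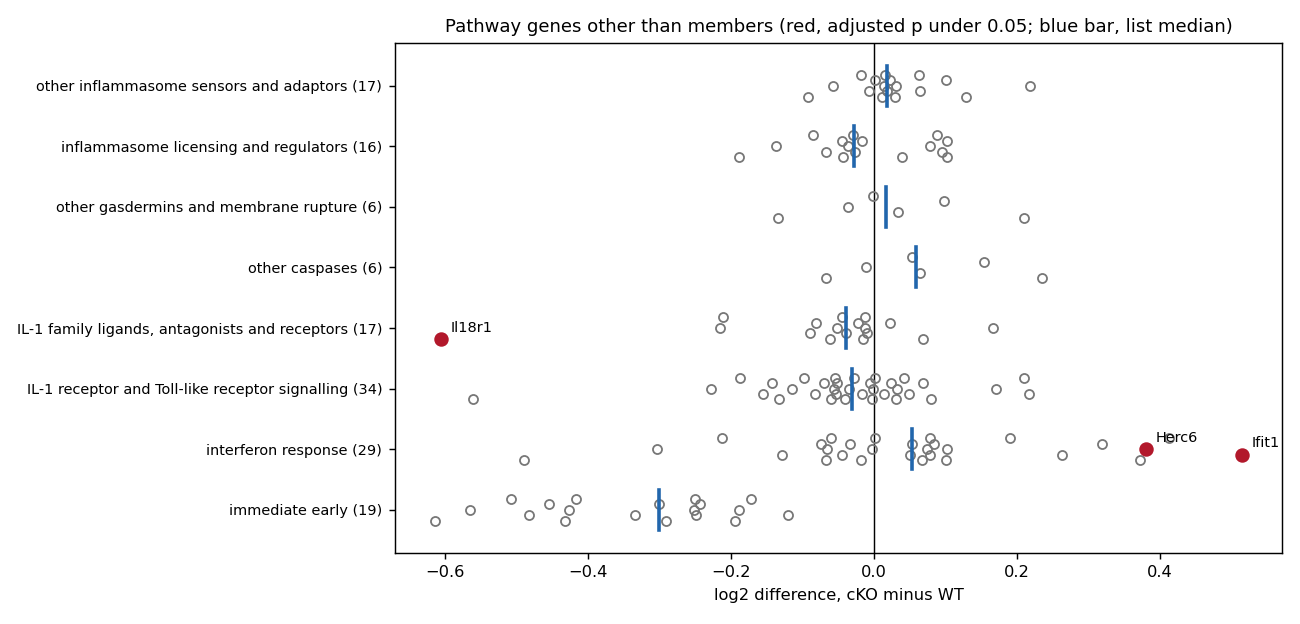
Log2 difference, cKO minus WT (x axis), of the genes in 8 lists around the inflammasome (rows, with the number measured); filled red points passed an adjusted p of 0.05 in limma, open grey points did not, and blue bars are list medians. Il18r1 lies at -0.60, Herc6 and Ifit1 at 0.38 and 0.51, and all 19 immediate early genes below 0.

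Markers of immune cells were set beside these values, because inflammasome genes are strongly expressed in myeloid cells. Of 18 macrophage and monocyte markers, 0 passed in limma, and 17 were among the dimmest 40% of genes. At an unadjusted p under 0.05, 2 were lower in cKO and 0 higher. By sign, 14 of the 18 lay below 0 and 4 above, with a median of -0.06. The brightest were Fcer1g, at 6.04 in cKO and 6.02 in WT, and Csf1r, at 5.33 and 5.32, both among the 4 above 0. The mean deviation of that list was -0.10 to -0.0005 in cKO arrays and -0.08 to 0.22 in WT arrays, which overlap. Without WT replicate 4, 1 of them, the Fc receptor gene Fcgr3, fell. With the mean of the macrophage list as a covariate, chosen after seeing the data, the differences were 0.65 for Casp1, 0.52 for Casp4 and 0.27 for Casp12. A mean of mostly dim genes is a poor measure of macrophage RNA, and the part of such cells in the differences was not tested. Langerhans and dendritic cell markers ran from -0.17 to 0.23 in cKO and from -0.25 to 0.24 in WT, with 0 of 10 past the threshold and 1 at an unadjusted p under 0.05. Of 9 T cell markers, Thy1 rose (7.47 ± 0.25 in cKO, against 6.90 ± 0.10 in WT, limma adjusted p = 0.0253) and passed in 3 of 8 fits without an array; it also marks fibroblasts. Neutrophil and mast cell lists had 0 of 9 and 0 of 8 past the threshold, with 1 and 0 at an unadjusted p under 0.05. Of 14 bulge and basal keratinocyte markers, 1 fell, the activin antagonist gene Fst. Fst passed in 5 of 8 fits without an array, with a highest limma adjusted p of 0.0569, and the number that fell was 0 to 2, with Nfatc1 as the other one without cKO replicate 2 or WT replicate 4. Of 9 suprabasal markers Sbsn rose and Krtdap fell, each also in 8 of 8 fits without an array. Without WT replicate 4, 3 suprabasal markers rose, with Ivl and Casp14 beside Sbsn, and without cKO replicate 1 Grhl1 fell beside Krtdap. Of 9 fibroblast markers Thy1 rose and Col1a1 fell, Col1a1 in 8 of 8 fits without an array. Lists of 6 sebocyte, 8 endothelial and 7 melanocyte markers had 0 past the threshold, with 0, 1 and 1 at an unadjusted p under 0.05. The brightest members of the marker lists were Epcam and Mfge8 (Langerhans and dendritic), Cd247 and Thy1 (T cell), S100a9 and Camp (neutrophil), Cma1 and Hdc (mast cell), Sbsn and Krt10 (suprabasal), Plin2 and Mgst1 (sebocyte), Fbln1 and Thy1 (fibroblast), Pecam1 and Tek (endothelial) and Mitf and Dct (melanocyte).

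The mean of the immediate early genes, a quickly induced class of transcription factor genes, separated the cKO arrays from 3 of the 4 WT arrays. It was -0.24 to -0.09 in cKO, -0.15 in WT replicate 4 and 0.22 to 0.36 in the other WT arrays. All 19 lay below 0 (median -0.30), 0 passed in limma and 16 had an unadjusted p under 0.05. Egr2, a zinc finger transcription factor, had the lowest p, at 9.47 ± 0.28 in cKO, against 10.09 ± 0.25 in WT (limma adjusted p = 0.0609). Egr2 passed without cKO replicate 1, and 18 of the 19 passed without WT replicate 4. With their mean as a covariate the Casp1 difference was 0.66, that of Casp4 0.66 and that of Pycard -0.095. This covariate nearly follows genotype, apart from WT replicate 4, so these values lean on that array. WT replicate 4 was the lowest WT array for Casp4 and the highest for Pycard. The covariate fit was not run without it. Their part in the other results was not tested.

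**Figure D4:**
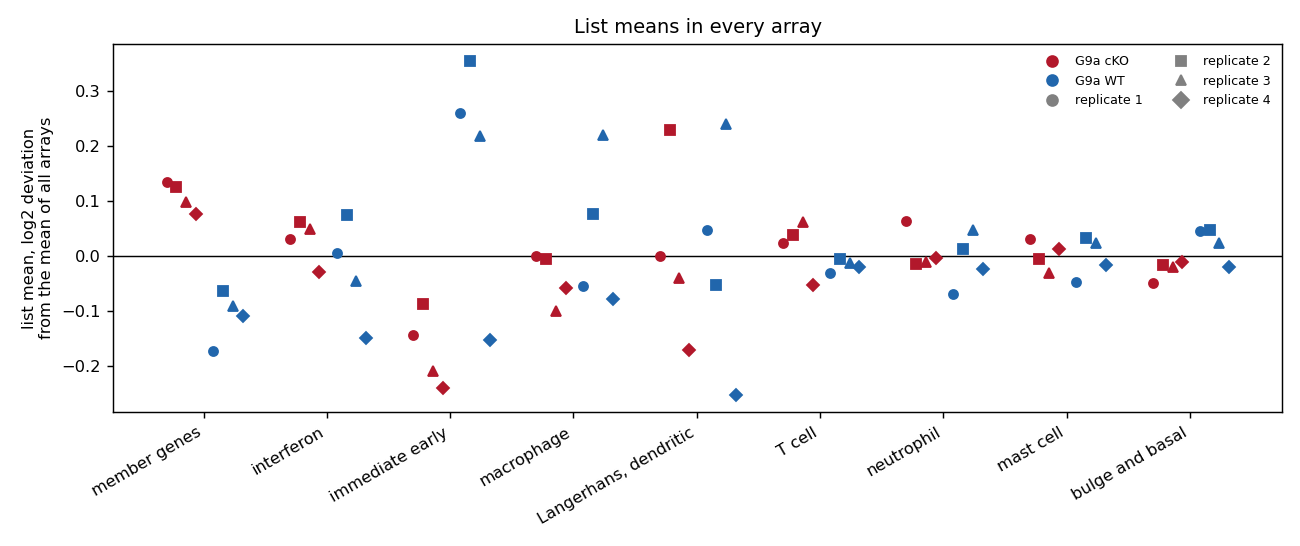
Mean deviation of each gene list from its mean over all arrays (y axis, log2) in the 4 G9a cKO arrays (red, left) and the 4 G9a WT arrays (blue, right), with marker shapes for the replicate number. The 7 inflammasome genes separate the genotypes, as their choice entails, while the macrophage means overlap, at -0.10 to -0.0005 in cKO and -0.08 to 0.22 in WT.

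Variation among animals of a genotype does not use the difference between genotypes, so the genes were also compared by their deviations from the genotype mean over the 8 arrays. For 11 relations, Pearson's r and Spearman's rho were computed with exact two-sided permutation within genotype, and Benjamini-Hochberg adjustment over the 11 left none under 0.05. Casp4 and Casp12 had r = 0.81 and rho = 0.71 (exact permutation p = 0.0313 and 0.0833, adjusted 0.172 and 0.350), and r was 0.49 without the 2 arrays farthest from the median of Casp4. Casp1 gave r = -0.16 and rho = -0.05 against Casp4 (exact permutation p = 0.769 and 0.939, adjusted 0.877 and 0.939), and r = -0.13 and rho = -0.24 against Casp12 (exact permutation p = 0.821 and 0.674, adjusted 0.877 and 0.823). Without the 2 arrays farthest from the median of Casp1 these r were -0.30 and -0.84, so they rest on few arrays. Il1b and the macrophage list had r = 0.92 and rho = 0.90 (exact permutation p = 0.0122 and 0.0174, adjusted 0.134 and 0.191), and r was 0.81 without 2 arrays. Il1b and the immediate early list had r = 0.32 and rho = 0.10 (exact permutation p = 0.646 and 0.889, adjusted 0.877 and 0.939), and r was 0.58 without 2 arrays. Casp1 and the macrophage list had r = -0.52 and rho = -0.43 (exact permutation p = 0.429 and 0.422, adjusted 0.709 and 0.663), and r was -0.14 without 2 arrays. Casp4 and the macrophage list had r = 0.73 and rho = 0.74 (exact permutation p = 0.109 and 0.116, adjusted 0.241 and 0.350), and r was 0.75 without 2 arrays. For Casp12 and that list r was 0.41 and rho 0.60 (exact permutation p = 0.451 and 0.191, adjusted 0.709 and 0.350), and r was 0.15 without 2 arrays. The interferon list gave r = 0.09 and rho = 0.26 with Casp1 (exact permutation p = 0.877 and 0.622, adjusted 0.877 and 0.823), and r was -0.52 without 2 arrays. With Casp4 it gave r = 0.74 and rho = 0.64 (exact permutation p = 0.0677 and 0.153, adjusted 0.186 and 0.350), and r was 0.25 without 2 arrays. With Casp12 it gave r = 0.81 and rho = 0.60 (exact permutation p = 0.0486 and 0.188, adjusted 0.178 and 0.350), and r was 0.43 without 2 arrays.

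By the same deviations, the genes most like Casp1 over the 8 arrays were Zfp472 (r = 0.97), Tpd52l1 (r = 0.96) and Ttc30b (r = 0.95). Those most like Casp4 were Pcdh11x, Pmp2 and Klrb1a (r = 0.98 to 0.99). Those most like Casp12 were Mrvi1, Bpifa2 and Rtbdn (r = 0.97 to 0.99). High values of r are reached by some genes in any search over 17097 genes with 8 arrays, and these names describe likeness alone. No gene was among the first 3 for more than 1 of the caspases.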

How the data were processed

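The deposited table holds a log2 expression value per probe set and array, made by the authors with RMA according to the labels' processing notes; the sources used here do not give its version or settings. Per the labels' protocols, 25 ng of RNA were amplified in 17 cycles. The deposited values ran from 3.09 to 13.1 and array medians from 5.87 to 5.95, and no further normalization was applied. Precision is limited by the 4 arrays per genotype. Each array's title names an animal, so the spread between arrays was read as that between animals.

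Of 45141 probe sets, 28898 had 1 gene symbol in the platform annotation, 551 had several and were not named, and 15692 had none here. The brightest probe set of each of 17097 genes entered a two-sided test with limma 3.58.1 (R 4.3.3), using eBayes with trend, no covariates and Benjamini-Hochberg adjustment over all genes. Second probe sets come from a fit over all probe sets. Correlations were tested in Python 3.11.15. The fit and the correlation test were tested on simulated data.

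The genes, the 8 pathway lists, the 11 marker lists and the tests were chosen with earlier results of these data known. The rule names the listed genes, per pathway list up to 4 genes past the threshold or the gene with the lowest p, the 2 nearest neighbours of the locus on each side, the 3 genes most like each caspase and the 2 brightest markers per list. Of the list entries, 4 were matched through an older symbol. Same-numbered animals showed no clear positive relation and were treated as unpaired. The alternatives were another normalization, a filter on dim genes, other ways to join probe sets, array weights, no trend, the replicate number as a block, other thresholds and leaving out each array. Figures were drawn with matplotlib 3.10.9.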

Additional observations from a re-analysis of the deposited data

How the results depend on the processing

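Of the 121 alternative values of the 7 inflammasome differences, 117 moved by less than 1 SD between animals. Part of the 117 could not move, so the count overstates stability. Fits without trend, with the replicate block or without dim genes keep the difference. Other choices of probe sets also keep it for genes with 1 probe set. The exceptions were Casp12 with the mean of all its probe sets (0.12) and, with the mean of the immediate early list as covariate, Casp4 (0.66), Casp12 (0.35) and Pycard (-0.095). Calls at the threshold changed more: Casp1 was past it in 18 of 18 alternatives, Casp4 in 12 of 17 and Casp12 in 7 of 17. Casp12 was not past it without trend, with the replicate block, with the mean of its probe sets or with the immediate early covariate. Pycard was past it in 1 of 18 and Il18 in 2 of 17. These counts reuse the contrast known when the list was made, so they describe the processing and lend the genes no support. Both covariates, the means of the immediate early and macrophage lists, were chosen after seeing the data. The immediate early mean nearly follows genotype apart from WT replicate 4, so fits with it lean on that array. Without an array the differences ran from 0.63 to 0.72 for Casp1, 0.37 to 0.49 for Casp4, 0.21 to 0.28 for Casp12, 0.082 to 0.21 for Pycard, -0.12 to -0.071 for Nlrp3, -0.094 to -0.0023 for Il1b and 0.16 to 0.23 for Il18. Over all genes, 329 rose and 143 fell in cKO. The counts were 191 and 77 with the replicate block, 159 and 44 at an adjusted p under 0.01, 497 and 247 at 0.10, and 44 and 21 with the immediate early covariate. The number that fell was 249 with array weights and 93 with the macrophage covariate. Without an array, 190 to 502 rose and 67 to 294 fell, the highest without WT replicate 4. Of the pathway genes, 2 rose and 1 fell. The number that rose was 1 with the replicate block, at 0.01 and with the macrophage covariate, 0 with the immediate early covariate, and 1 to 4 without an array. The number that fell was 0 without dim genes or with the immediate early covariate, 2 with either other choice of probe sets, 8 with array weights, 4 with the replicate block, 7 at 0.10 and 1 to 21 without an array. Il18r1 itself was among the dim genes left out. The cause of the other changes was not tested. Deviations of same-numbered animals of the genotypes had r of -0.33, -0.27, -0.53 and 0.028 for numbers 1 to 4, so no clear positive relation. In addition, 0 of 8 arrays correlated best with their own number in the other genotype. The filter on the dimmest 40% of genes left out 5 of the 7 inflammasome genes, which were Casp4, Casp12, Nlrp3, Il1b and Il18. The lower part of the scale, which holds Casp12, Nlrp3 and Il18, is limited by signal over background.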
